A study of Mus musculus with 4 samples.

Results

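The 4 Hox clusters are the gene arrays HoxA, HoxB, HoxC and HoxD, and the analysis covers 38 member genes in them. They were taken as 4 windows of the mouse build mm9: HoxA at chr6:52050001-52300000, HoxB at chr11:95980001-96280000, HoxC at chr15:102680001-103000000 and HoxD at chr2:74450001-74650000. Peaks of H3K27me3 that overlapped a window by at least 1 bp were members, which gave 103 of the 20024 peaks from adult bone marrow cells and 81 of the 31847 peaks from fetal liver cells. The windows were set by position, not by signal.

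The study mapped H3K27me3, the trimethyl mark on a lysine of histone H3, in lineage-negative (lin-) progenitors of C57BL/6 mice. One group came from the bone marrow of mice at 8 weeks of age and the other from fetal livers at embryonic day 14.5. Both groups carried the same agent, a lentivirus encoding NOTCH1ΔE (N1dE), a truncated and active form of the NOTCH1 receptor, and were sorted by GFP after 3 days in culture, so neither list shows untransduced cells. Each group has 1 immunoprecipitation sample with 1 peak list, called against input, so there is no spread between replicates, no test between the groups was possible, and every value is a description of these 2 lists. Read depth is unknown for both libraries, and the length a caller marks can grow with depth.

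Hox genes encode homeodomain transcription factors that give cells their position along the body axis. Their order on the chromosome follows the order of their use, from anterior genes of low number to posterior genes of high number. Genes not in use are covered by Polycomb repressive complex 2, which writes H3K27me3 over whole stretches of a cluster, and the trithorax group opposes it where genes are active. In blood progenitors Hoxa9 and Hoxa10 support self-renewal, and Hoxa9 is often active in acute leukaemia. Hoxb4 expands blood stem cells when forced on. Hoxa2 patterns the hindbrain, Hoxa3 the thymus and parathyroid, Hoxc13 acts in hair follicles, Hoxb13 in the prostate, and Hoxa13 and Hoxd13 in the digits and the urogenital tract.

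By the RefSeq gene table for GRCm38, all 38 members follow their numbers without exception. The HoxA members run from Hoxa2 at the anterior to Hoxa13 at the posterior end, between Skap2, an adaptor protein gene, and the homeobox gene Evx1. HoxB runs from Hoxb1 to Hoxb13 between the adaptor gene Skap1 and Ttll6. HoxC runs from Hoxc4 to Hoxc13 between the DNA repair gene Smug1 and Calcoco1, and HoxD from Hoxd1 to Hoxd13 between the mitochondrial gene Mtx2 and the homeobox gene Evx2. That table is on another build than the peaks. It was used only for order, so no peak or gap below is assigned to a single gene. The anterior end is the low-coordinate end in HoxA and the high-coordinate end in the other clusters, and distances are in kb from the anterior end of the window. A window can reach well past its genes. In HoxA, with a window of 250 kb, the promoters of Hoxa2 and Hoxa13 lie at chr6:52164782-52165081 and chr6:52260831-52261130 on GRCm38. Parts called anterior or posterior are thus parts of a window or marked region, not places in the gene order.

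The clusters also hold 6 microRNA genes, whose products repress messenger RNAs, those of some Hox genes among them. Mir196b lies between Hoxa9 and Hoxa10, Mir196a-1 between Hoxb9 and Hoxb13, and Mir196a-2 between Hoxc9 and Hoxc10. Mir10a lies between Hoxb4 and Hoxb5 and within the extent of Hoxb3 in the table, and Mir10b lies within the extents of Hoxd4 and Hoxd3. Mir615 lies within Hoxc5. The mature 5p products (RefSeq, GRCm38.p6, 5′ to 3′) are shown because the copies in different clusters share their seed, bases 2 to 8, which is in capitals.
miR-10a-5p (HoxB): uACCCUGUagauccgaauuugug
miR-10b-5p (HoxD): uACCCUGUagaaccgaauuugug
miR-196a-5p (HoxB and HoxC): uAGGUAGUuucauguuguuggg
miR-196b-5p (HoxA): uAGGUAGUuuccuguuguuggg
Of 1679 mature mouse miRNAs in the table, only 2 have the miR-10 seed ACCCUGU and only 2 the miR-196 seed AGGUAGU, and all of these are in the Hox clusters. The sequences of miR-10a-5p and miR-10b-5p differ at 1 base outside the seed, U12A counted from the 5′ end, and those of miR-196a-5p and miR-196b-5p at 1 base, A12C.

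Polycomb complexes are known to gather at DNA rich in CpG, and the Hox promoters that could be examined were rich in it as a group. Promoters of 22 of the 38 members were found in the RefSeq table, as 300 bases from 250 before to 50 after the start. Most were from HoxA and HoxD. HoxB had only Hoxb1, Hoxb4 and Hoxb8, and HoxC only Hoxc4, with 9 CpG, so the values below say little about these clusters. Taking the start with the most CpG for each gene, members held a median of 17.5 CpG (range 4 to 45), against 8 in the 26996 other genes. At least 10 CpG were found in 16 of the 22, or 72.7%, against 45.8% of all promoters of this length. The promoter with the most CpG among members is that of Hoxa13 (45, GC content 81.0%), and that of Hoxa9 is among those with the fewest (4, GC content 49.7%). Both are printed 5′ to 3′ with each CG, the same on either strand, in capitals.
Hoxa13 (GRCm38.p6, minus strand, chr6:52260831-52261130): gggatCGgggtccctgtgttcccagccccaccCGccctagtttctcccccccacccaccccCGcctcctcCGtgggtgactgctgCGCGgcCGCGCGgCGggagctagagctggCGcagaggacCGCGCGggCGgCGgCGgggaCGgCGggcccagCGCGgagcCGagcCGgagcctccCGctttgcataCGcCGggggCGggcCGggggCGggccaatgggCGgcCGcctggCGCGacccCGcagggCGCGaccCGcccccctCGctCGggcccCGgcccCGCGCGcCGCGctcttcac
Hoxa9 (GRCm38.p6, minus strand, chr6:52227321-52227620): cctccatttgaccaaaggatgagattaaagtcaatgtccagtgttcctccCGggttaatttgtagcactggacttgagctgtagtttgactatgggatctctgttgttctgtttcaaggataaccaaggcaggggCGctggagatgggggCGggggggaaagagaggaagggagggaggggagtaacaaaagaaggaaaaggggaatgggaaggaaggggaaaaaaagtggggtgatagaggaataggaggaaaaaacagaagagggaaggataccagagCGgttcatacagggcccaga
These promoters show how far CpG content differs between members of the same cluster. These coordinates cannot be set against the mm9 peaks.

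All 4 windows were covered by H3K27me3 in both populations, over most of their length. Bone marrow peaks covered 664.8 of the 1070 kb in the windows (62.1%) against 808.8 kb (75.6%) for fetal liver peaks. Of these, 629.2 kb lay in both lists, 179.6 kb in fetal liver only and 35.6 kb in bone marrow only. In bins of 10 kb, at least 5 kb was covered in 65 of 107 bins in bone marrow, where 0.897% of all bins of the genome reach this, and in 83 of 107 in fetal liver, where 1.41% do. Bins covered end to end numbered 31 in bone marrow and 49 in fetal liver, against 0.108% and 0.179% of all bins. The windows were centred on known Polycomb targets, so high cover is a description of them.

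**Figure D1:**
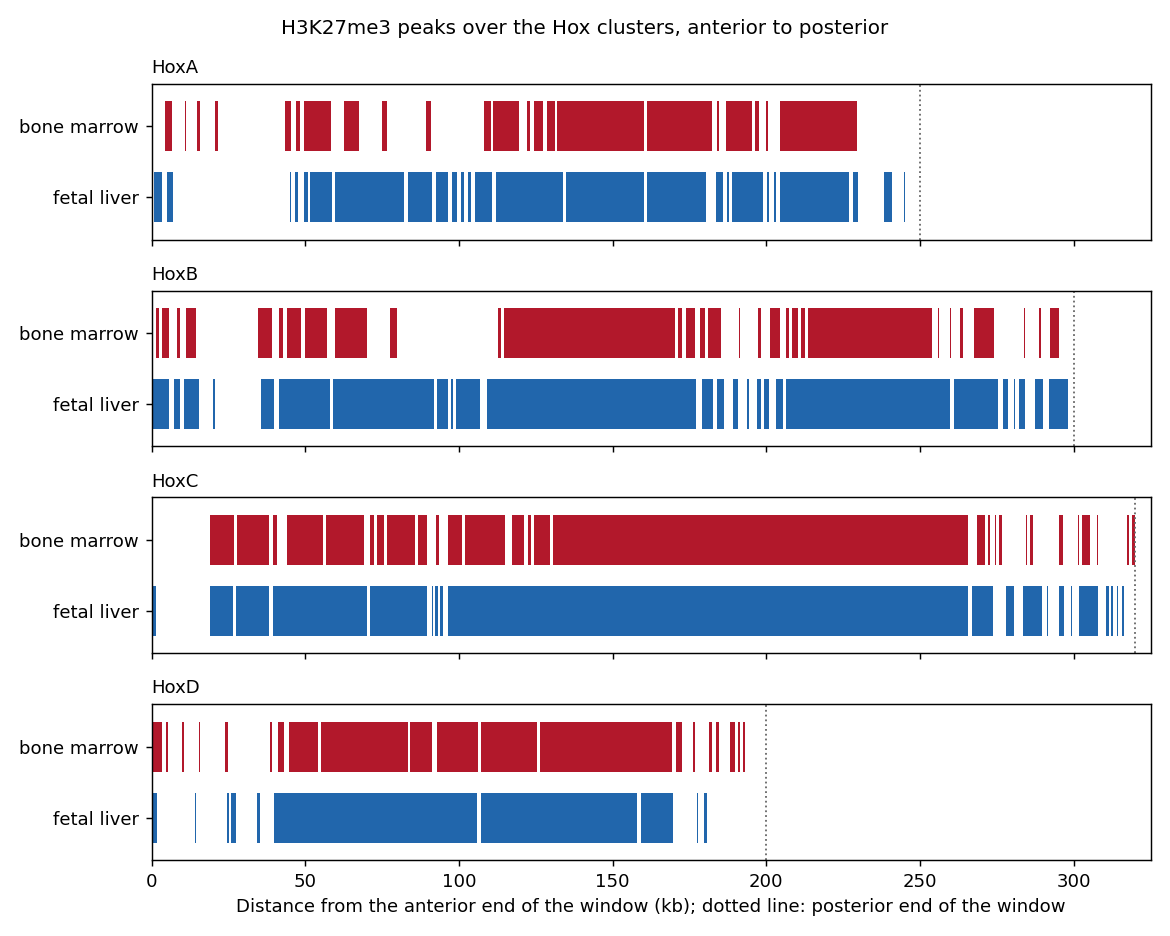
H3K27me3 peaks of bone marrow (upper bars) and fetal liver (lower bars) along the 4 windows, with the distance from the anterior end in kb on the x axis. Bone marrow lacks most of the cover that fetal liver has between about 60 and 110 kb in HoxA and 70 and 110 kb in HoxB, and both lists fill the middle of HoxC and HoxD.

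The difference between the populations was unequal among the clusters. In HoxB the bone marrow list covered 167.4 kb against 240.8 kb in the fetal liver list, a ratio of 1.44. In HoxA they covered 126.6 and 166.4 kb, a ratio of 1.31. In HoxC they covered 235.7 and 267.6 kb, a ratio of 1.13, and in HoxD 135.0 and 134.1 kb, a ratio of 0.993. HoxA and HoxB together carried most of the extra fetal liver cover, with 73.4 kb in HoxB and 39.8 kb in HoxA of the 144.0 kb over all windows. HoxD had about the same length covered in both lists, in large part the same bases, with 121.4 kb in common.

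These ratios depended on how peaks were chosen. When only the top 20024 fetal liver peaks by −log10 p were kept, they were 1.27 in HoxB, 1.24 in HoxA, 1.03 in HoxC and 0.977 in HoxD. With peaks of a fold enrichment of at least 2 in both lists they turned to 0.581, 0.763, 0.246 and 0.651. The fetal liver peaks of 169.2, 53.5, 50.9 and 33.0 kb, with folds of 1.88 to 2.00, are left out by that limit. With peaks of −log10 q 2 or more the ratios fell to 0 in HoxB, 0.137 in HoxA, 0.0613 in HoxC and 0.0251 in HoxD. Of the Hox peaks at least 5 kb wide, 9 of 26 in bone marrow and 0 of 29 in fetal liver have such a q. With the fetal liver list cut to the bone marrow covered length, a setting added after seeing the data, they were 1.21, 1.24, 1.02 and 0.977 in HoxB, HoxA, HoxC and HoxD. The higher fetal liver cover in HoxA, HoxB and HoxC thus held when that list was shortened by rank. It turned with equal limits on fold or q in both lists, so it describes the lists under a given choice of peaks.

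HoxA had a marked posterior part in both lists and, in its anterior part, a stretch that was largely uncovered in bone marrow alone. From 60 to 110 kb (chr6:52110001-52160000) the bone marrow list covered 9.65 kb, or 19.3%, against 42.7 kb, or 85.4%, in the fetal liver list. The stretch was chosen as the longest row of bins in which fetal liver covered at least 5 kb more, so its direction and its large share of the difference follow from that choice and are a description. It lies at 8.99 to 35.8% of the marked region counted from its anterior edge, and it held 83.1% of the difference over the whole HoxA window. In its 5 bins of 10 kb, bone marrow covered 4.86, 1.52, 0.735, 0.727 and 1.81 kb and fetal liver 10.0, 10.0, 8.75, 6.95 and 6.99 kb. Bone marrow kept some cover in each of these bins.

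A row of 3 bone marrow gaps lay in this stretch. Their widths were 7.55 kb (chr6:52117537-52125084), 12.7 kb (chr6:52126602-52139265) and 17.5 kb (chr6:52140728-52158190), and fetal liver peaks covered 100%, 90.2% and 65.3% of them. The last gap contained some of the sharpest Hox peaks of the fetal liver list. A peak of 1787 bp there (chr6:52147672-52149458) was enriched 3.51-fold with a −log10 q of 4.10, and a neighbour of 1044 bp (chr6:52150701-52151744) was enriched 3.24-fold with a −log10 q of 3.49. These rank at 482 and 872 by fold among the 31847 fetal liver peaks. No bone marrow peak touched either. The stretch gave the same values with peaks of a fold of at least 2 and with the reduced fetal liver list, but with −log10 q limited to 2 or more the order turned, with 6.38 kb left in bone marrow against 3.90 kb in fetal liver.

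The posterior part of HoxA was filled to similar shares. With the marked region cut into 4 equal parts from anterior to posterior, bone marrow peaks filled 41.3, 47.0, 95.7 and 77.7% of them and fetal liver peaks 82.9, 82.8, 92.0 and 82.3%. Bone marrow was thus lower in the anterior pair of parts than in the posterior pair, and in the part next to the posterior one it was above fetal liver. A peak of 28.2 kb in bone marrow (chr6:52182000-52210188) and one of 25.5 kb in fetal liver (chr6:52184753-52210266) had nearly the same posterior end. The next bone marrow peak, 20.9 kb wide (chr6:52211253-52232168), had the highest fold among the bone marrow peaks of at least 20 kb in the clusters, 2.70, with a −log10 q of 2.67, against a fold of 1.95 for the fetal liver peak of 19.1 kb over the same place.

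HoxB had the widest single hole. From 79.9 to 112.5 kb (chr11:96167468-96200121) bone marrow had no peak over 32.7 kb, and fetal liver peaks covered 27.6 kb of it, or 84.5%. A second bone marrow gap of 7.36 kb (chr11:96202536-96209896) lay just anterior to it and was covered to 100% in fetal liver. The peaks of fetal liver in the wide gap had folds of 1.56 to 2.10. The median fold of the list outside the clusters is 1.93, and 2 of the 5 peaks, with folds of 1.56 and 1.71, lay well under it, at percentiles 12.8 and 25.2 of the list. In the 4 bins from 70 to 110 kb bone marrow covered 2.52, 0, 0 and 0 kb and fetal liver 10.0, 10.0, 7.29 and 7.65 kb. This stretch, chosen by the same rule as the one in HoxA, held 44.2% of the HoxB difference. Another part of it lay in the posterior bins from 250 to 270 kb, with 8.26 kb in bone marrow against 18.8 kb in fetal liver. With peaks of a fold of at least 2, 4.38 kb of fetal liver cover was left in the stretch against 0.104 kb in bone marrow, and with −log10 q limited to 2 or more it was 0 against 0.104 kb. The HoxA stretch kept its 33.0 kb at this fold limit. A fetal liver peak of 22.4 kb in the HoxA stretch had a fold of 2.02, just above the limit. One of 33.0 kb in the HoxB stretch had a fold of 1.96, just below it. Fetal liver peaks overlapping the HoxA stretch had folds of 2.02 to 3.51, and those overlapping the HoxB stretch 1.56 to 2.10. Why the stretches differ at this limit was not tested, and the contrast is no measure of how firm either difference is.

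**Figure D2:**
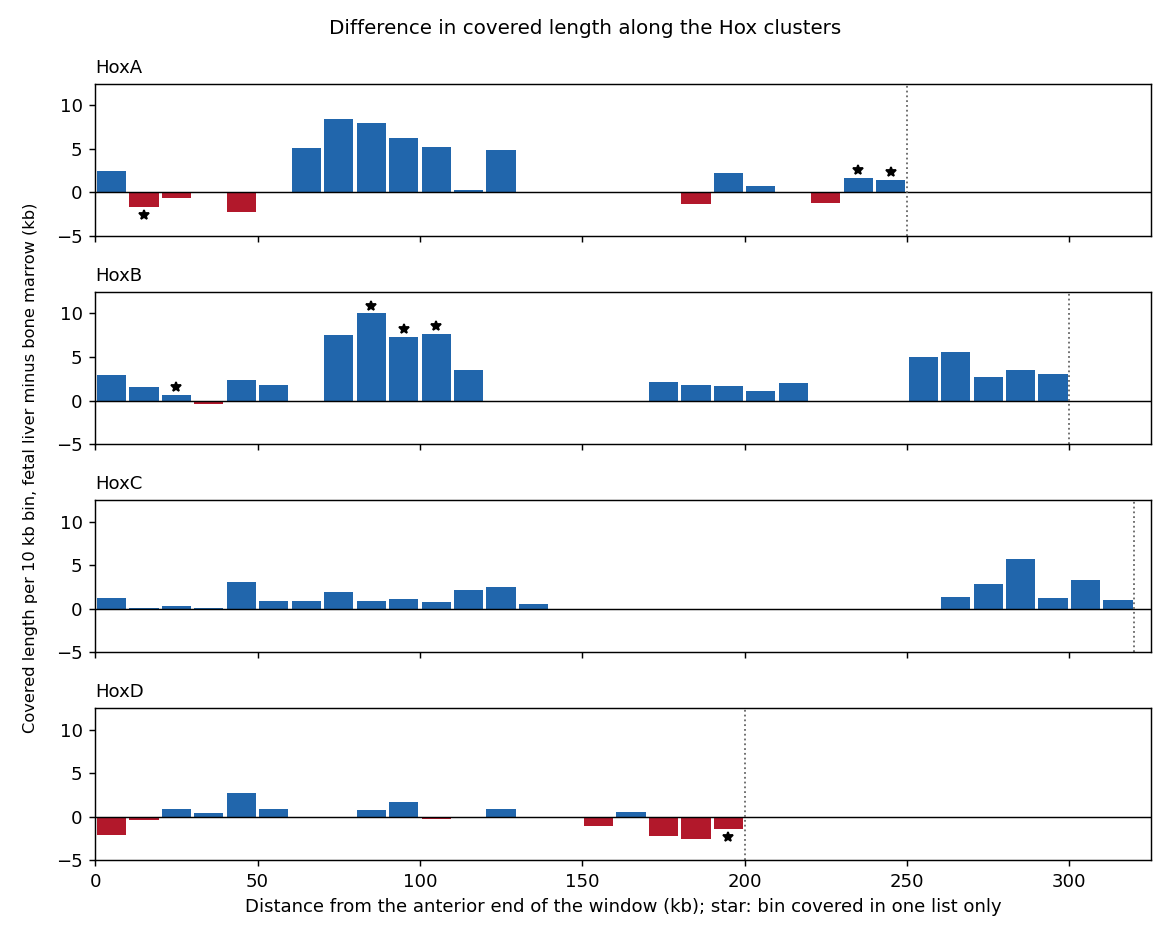
Covered length per 10 kb bin, fetal liver minus bone marrow in kb, against the distance from the anterior end, with stars for bins covered in 1 list only. The differences of 5 kb or more lie at 60 to 110 kb in HoxA, at 70 to 110 kb and 250 to 270 kb in HoxB and at 280 to 290 kb in HoxC, and none is in HoxD.

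HoxB also held wide stretches covered in both populations. The widest stretch without a break in both lists ran for 55.7 kb (chr11:96109827-96165493), which is the widest bone marrow peak of the cluster in full, with a fold of 2.12. The fetal liver peak around it spanned 67.9 kb with a fold of 2.03. A more posterior pair of peaks, of 40.2 kb in bone marrow (fold 2.08) and 53.5 kb in fetal liver (fold 2.00), also overlapped, with 100% of the bone marrow peak covered. Both lists shared an uncovered stretch near the anterior end, of 20.1 kb in bone marrow (chr11:96245527-96265610) and 14.8 kb in fetal liver (chr11:96244569-96259330).

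HoxC held the largest common block. A row of 12 bins, from 140 to 260 kb (chr15:102740001-102860000), were covered end to end in both lists. The widest unbroken common stretch was 134.9 kb (chr15:102734546-102869418). It lies within a bone marrow peak of 135.1 kb with a fold of 2.16 and a fetal liver peak of 169.2 kb with a fold of 1.98, which has its extra length on the anterior side. Every one of the 32 HoxC bins was covered to some extent in both lists. Fetal liver covered more in 20 bins, bone marrow in 0, and 12 were equal. The bone marrow gaps of 5 kb or more lay outside the block: 4 toward the posterior end, of 5.01 to 9.32 kb, and 1 of 18.9 kb at the anterior end (chr15:102980916-102999851), where fetal liver had a gap of 17.6 kb as well.

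HoxD was the cluster that differed least in length in the lists as deposited. With peaks of a fold of at least 2 its ratio was 0.651, further from equal than the 0.763 of HoxA. The marked region of HoxD, 134.1 kb long (chr2:74477491-74611548), was filled to 92.5% in bone marrow and 95.3% in fetal liver. Fetal liver had 2 wide peaks over it, of 66.2 kb (fold 2.07) and 50.9 kb (fold 1.88). Bone marrow broke the same region into more pieces, the widest of 42.9 kb (fold 2.09) and 28.3 kb (fold 2.43). Bone marrow covered more in 7 of the 20 bins and fetal liver in 8, and no bin differed by 5 kb or more.

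Short and strongly enriched bone marrow peaks stood in the anterior part of the HoxD window, at the edge of the marked region and beyond it. The peak at chr2:74625270-74626203 (934 bp) had a fold of 4.37 and a −log10 q of 5.11, the highest of all Hox peaks in either list and rank 151 by fold among the 20024 bone marrow peaks. It lies outside the marked region, past a bone marrow gap of 13.7 kb. The peaks at chr2:74610782-74611548 (767 bp) and chr2:74607001-74608765 (1765 bp) had folds of 3.93 and 3.41 and lie at the edge itself. Fetal liver peaks covered 13.9%, 0% and 100% of the 3. The highest fold of any fetal liver peak in HoxD was 2.66. Peaks of a fold of at least 3 numbered 8 of 103 in bone marrow (7.77%, against 8.82% of the whole list) and 3 of 81 in fetal liver (3.70%, against 4.54%), so strong peaks were about as frequent in the clusters as in the lists. They stood unevenly: 4 of the 8 bone marrow peaks were in HoxD and all 3 fetal liver peaks were in HoxA.

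**Figure D3:**
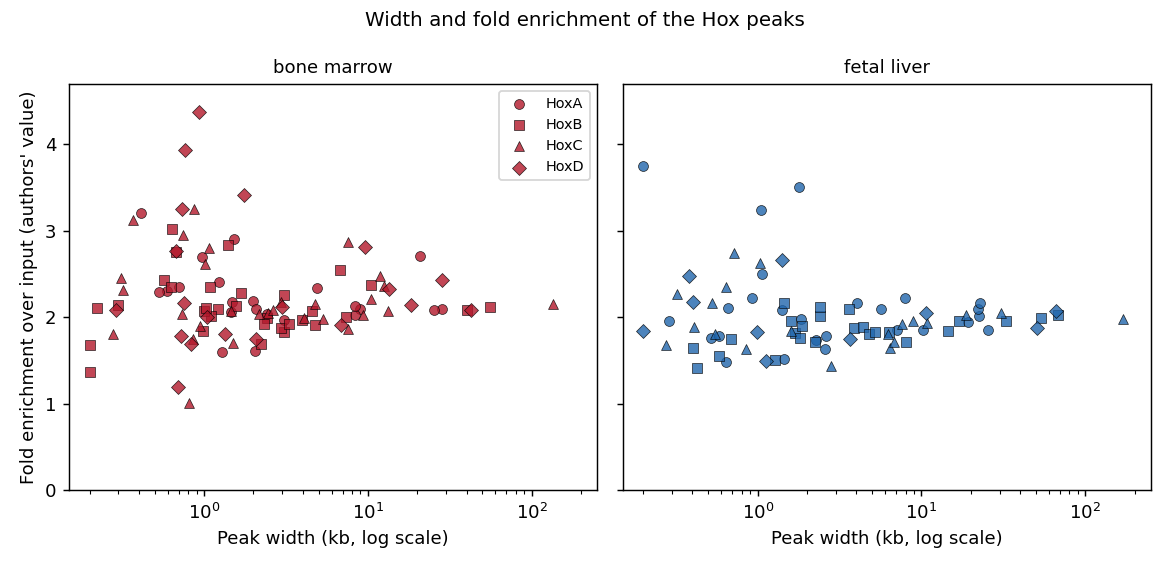
Fold enrichment over input, as the authors' caller gave it, against peak width in kb on a log axis for the 103 bone marrow and 81 fetal liver Hox peaks, with a symbol for each cluster. Peaks of at least 20 kb lie between folds of 1.85 and 2.70, and folds of 3 or more belong to peaks under 2 kb.

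Hox peaks were wide more often than the peaks of the whole lists, and had similar folds. Of the bone marrow Hox peaks 26 (25.2%) were at least 5 kb wide, against 9.54% of the list, and of the fetal liver Hox peaks 29 (35.8%), against 8.02%. Peaks of 20 kb or more numbered 8 and 11, where 0.489% and 0.477% of the lists are that wide. Median folds in the clusters were 2.10 in bone marrow and 1.92 in fetal liver, next to 2.12 and 1.93 for all other peaks. A −log10 q of at least 2 was reached by 27 Hox peaks in bone marrow (26.2%, against 26.5% of the list) and 7 in fetal liver (8.64%, against 15.2%). A fold is averaged over a peak by the caller, and whether it means the same in both lists was not tested.

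Gaps of 2 kb or more were more numerous in bone marrow. Uncovered gaps of 2 kb or more between the outermost peaks of a window numbered 47 in bone marrow, with 308.3 kb in all, and 26 in fetal liver, with 168.3 kb. By cluster there were 12 and 5 in HoxA, 16 and 9 in HoxB, 11 and 7 in HoxC, and 8 and 5 in HoxD. This order depended on the smallest gap counted. With gaps of at least 1 kb HoxA had 18 in bone marrow and 21 in fetal liver, and with gaps of at least 5 kb HoxD had 2 in bone marrow and 4 in fetal liver. Of the gaps of 5 kb or more, 17 in bone marrow and 9 in fetal liver, the other list covered at least 50% in 5 and in 0 cases. All 5 were the HoxA and HoxB gaps given before. Of the 12 others in bone marrow, fetal liver peaks covered from 0 to 49.7%, and those wider than 10 kb lay on the anterior side of HoxA (21.6 kb, 0% covered), HoxB (20.1 kb, 8.28%), HoxC (18.9 kb, 7.04%) and HoxD (13.7 kb, 19.5%).

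Gaps of this kind are common in wide domains. Within the 4 marked Hox regions, made by joining peaks of either list within 3 kb, 18 of 26 bone marrow gaps (69.2%) were covered by fetal liver peaks over at least 50% of their length. In the 76 other regions of at least 50 kb this held for 56.2% of 317 gaps. For fetal liver gaps it was 2 of 9, against 8.38% of 167. In the other regions too, bone marrow gaps were filled from the fetal liver list more often than the reverse. A gap wider than 3 kb stays in such a region only where the other list has peaks in it. Part of the filling thus follows from how the regions were made. Over the whole Hox windows, 20 of 47 bone marrow gaps and 2 of 26 fetal liver gaps were covered over at least 50% of their length.

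**Figure D4:**
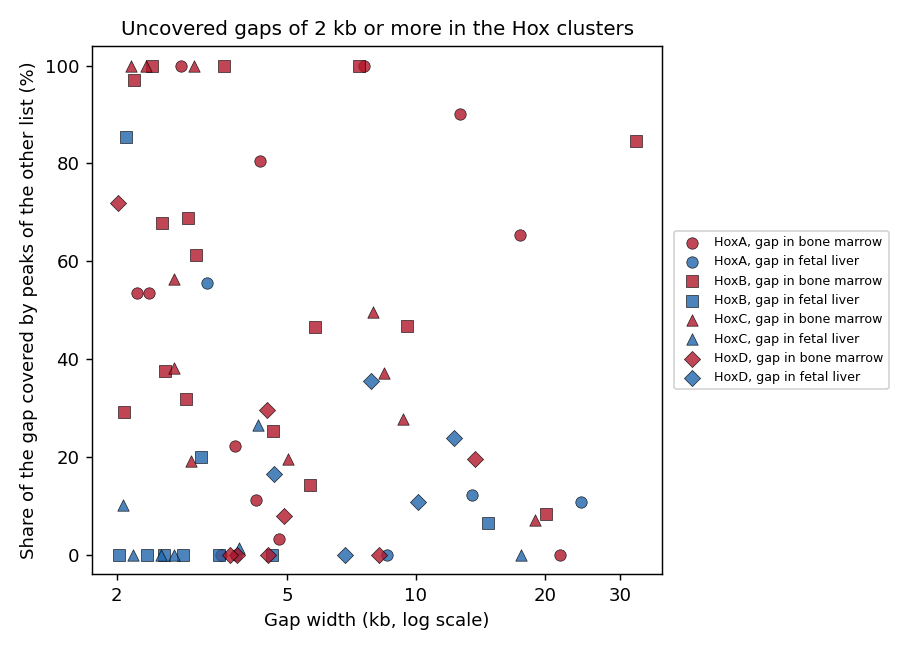
Width in kb (log axis) of each gap of 2 kb or more, against the share of the gap covered by peaks of the other list in percent, for gaps in bone marrow and in fetal liver, with a symbol for each cluster. The bone marrow gaps of 12.7, 17.5 and 32.7 kb are covered for 65.3 to 90.2%, and no fetal liver gap of 5 kb or more is covered beyond 35.5%.

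Bins covered in 1 list only were few in the lists as deposited. Fetal liver alone covered 6 of 107 bins (5.61%), against 4.11% of all bins of the genome and 39.0% of bins with any peak. They were the HoxB bins chr11:96170001-96180000, chr11:96180001-96190000 and chr11:96190001-96200000 in the wide gap, with 7.65, 7.29 and 10.0 kb, the HoxB bin chr11:96250001-96260000 with 0.67 kb, and the last pair of HoxA bins at the posterior end, chr6:52280001-52290000 and chr6:52290001-52300000, with 1.71 and 1.46 kb. Bone marrow alone covered 2 bins (1.87%), against 1.15% of all bins and 10.9% of bins with any peak. These were chr6:52060001-52070000, anterior to the marked HoxA region, with 1.64 kb, and chr2:74450001-74460000, posterior to HoxD, with 1.46 kb. Both shares are near the background of all bins, but nearly all Hox bins, 106 of 107, hold a peak. Among bins with a peak the Hox shares were 5.66% and 1.89%, well under the 39.0% and 10.9% over the genome.

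In the lists as deposited, large differences in a bin went toward fetal liver without exception. Among the 84 Hox bins with at least 5 kb in either list, fetal liver covered more by 5 kb or more in 12 (14.3%), against 8.59% of such bins over the genome, and bone marrow in 0, against 0.665%. Of the 12, 5 were in HoxA, 6 in HoxB and 1 in HoxC. The 3 largest were 10.0 kb in HoxB, 8.48 kb and 8.02 kb in HoxA. In HoxC the largest was 5.70 kb (chr15:102710001-102720000) and in HoxD 2.77 kb (chr2:74600001-74610000). At least 1 base more was covered in fetal liver in 58.5% of Hox bins with a peak, against 73.0% of such bins over the genome, and in bone marrow in 13.2%, against 26.2%. The remaining Hox bins were equal, as bins full in both lists are. This direction depended on the score cut. With peaks of a fold of at least 2 in both lists, 50 of 107 bins were covered in bone marrow only and 2 in fetal liver only.

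Domain edges depended on how they were drawn. In the marked regions, which join peaks of both lists, edges were drawn toward each other where short peaks lie near. There, at the posterior edge of HoxA the last covered bases were 86 bp apart (52279629 in bone marrow and 52279715 in fetal liver), and at the anterior edge of HoxC 90 bp (102980915 and 102981005). The anterior edges of HoxB, HoxD and HoxA were 958, 1333 and 1790 bp apart. The posterior edges of HoxD and HoxC were 2790 and 4610 bp apart, with bone marrow further out in HoxD and fetal liver in HoxC. At the posterior edge of HoxB both lists ended on the same base, 95995956. Edges of blocks of at least 10 kb, made from each list on its own, gave the same distances in HoxA and HoxD and other ones in HoxB and HoxC. The posterior block edge was 34.3 kb further out in fetal liver in HoxB (96016048 in bone marrow, 95981752 in fetal liver) and 39.7 kb in HoxC (102723356 and 102683690). The anterior block edge was 4.56 kb further out in fetal liver in HoxB and 3256 bp further out in bone marrow in HoxC. Beyond the anterior edge of HoxA, toward Skap2, the next 21.6 kb in bone marrow, against 24.3 kb in fetal liver, were free of peaks.

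**Figure D5:**
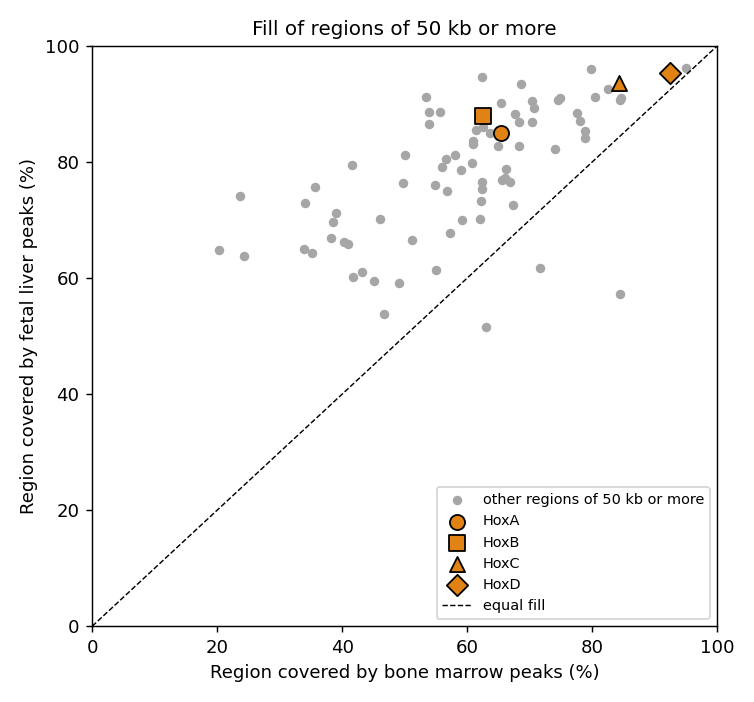
Share of each region of at least 50 kb covered by bone marrow peaks (x axis, %) and fetal liver peaks (y axis, %), for the 4 Hox regions and 76 other regions, with a dashed line of equal fill. HoxC and HoxD lie near the upper right corner, and HoxA and HoxB lie above the line among the other regions.

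Set among the 80 regions of at least 50 kb, the Hox regions were the widest (272.5 kb for HoxC, 249.6 kb for HoxB, 186.5 kb for HoxA and 134.1 kb for HoxD). By fill HoxD ranked 2 in bone marrow and 3 in fetal liver, and HoxC 6 and 5. HoxA was filled to 65.4% in bone marrow and 85.0% in fetal liver, and HoxB to 62.5% and 87.9%, at ranks 30 and 29, and 35 and 21. The ratio of cover, fetal liver over bone marrow, was 1.41 in HoxB, 1.30 in HoxA, 1.11 in HoxC and 1.03 in HoxD, against a median of 1.31 (range 0.677 to 3.18) in the other regions. More bases were covered in fetal liver in 96.2% of the 80 regions. HoxA and HoxB lay near the middle of the wide regions in this ratio, at ranks 42 and 26, and HoxC and HoxD among the most evenly covered, at ranks 70 and 76.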

How the data were processed

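Progenitors from adult bone marrow and from fetal liver were profiled by native chromatin immunoprecipitation after micrococcal nuclease digestion, with 1 H3K27me3 sample and 1 input each, per the labels' protocols. The inputs were not analysed here on their own. The submitters' processing notes name MACS2 2.1.0, BWA 0.5.7, Picard and build mm9. No settings or read totals were given in the sources used here. Per the file's peak names merged libraries were called against input, and each list is treated as 1 sample. The deposited fold enrichment is the authors' ratio over input, averaged over the peak. The deposited significance columns are −log10 p and −log10 q. The deposited score column, which equals 10 times −log10 q without decimals except in 1 peak of each list, was not used. Peak lists hold no expression, so the identity of the cells was not checked.

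Covered bases, 10 kb bins, gaps of at least 2 kb and regions joined within 3 kb were computed in Python 3.11.15 (pandas 2.3.3, numpy 2.4.6), and the functions were tested on simulated data. Chromosome lengths came from GenomeInfoDb 1.38.1, and figures from matplotlib 3.10.9. Named regions were the bins of 1 list only, the widest gap and peak of each list in each cluster, gaps of at least 5 kb, and the bins of largest difference; strong short peaks were named after their values were seen. Alternatives changed the score cut, list length, bin size, gap size and joining distance. Members, windows and lists were chosen with earlier results of these data known. Promoter cover of members and of the cofactor genes had been planned and was not run, since gene positions on mm9 were not used here.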

Additional observations from a re-analysis of the deposited data

How the results depend on the processing

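No paired analysis was possible because each population has a single H3K27me3 list. Of 102 alternative values 45 kept the direction and stayed within 1.5 times of the reported value (within 3 kb for edges), 42 moved further and 15 changed direction. With peaks limited to a −log10 q of 2 or more, the ratio of covered length, fetal liver over bone marrow, was 0.137 in HoxA, 0 in HoxB, 0.0613 in HoxC and 0.0251 in HoxD, and the anterior stretches of HoxA and HoxB differed by -2.48 and -0.104 kb. A fold of at least 2 gave ratios of 0.763, 0.581, 0.246 and 0.651, a difference of 4.28 kb in the HoxB stretch, 13 fetal liver gaps, and 2 fetal-liver-only and 50 bone-marrow-only bins. Peaks of at least 1 kb turned the HoxD ratio to 1.03. Counting gaps of at least 1 kb or 5 kb gave 79 or 17 in bone marrow and 61 or 9 in fetal liver, and the reduced fetal liver list gave 17 fetal liver gaps and 9 bone-marrow-only bins. Bins of 5 kb or 20 kb gave 20 or 2 in fetal liver only and 9 or 0 in bone marrow only. Domain edges taken from blocks of at least 10 kb within 1 list depended on joining. The distance by which fetal liver reached further out, joined within 3 kb, was -1.79 (anterior) and 0.086 kb (posterior) in HoxA, 4.56 and 34.3 in HoxB, -3.26 and 39.7 in HoxC, and -1.33 and -2.79 in HoxD. Joined within 1 kb the values were 58.8 and -2.64 in HoxA, 18.4 and 21.6 in HoxB, 8.77 and -0.203 in HoxC, and 4.75 and 0.504 in HoxD. Joined within 10 kb, those that moved were -40.6 and 43.8 in HoxA, 11.9 at the posterior end of HoxB, 107.6 at that of HoxC and -12.4 at that of HoxD. The reduction to the bone marrow covered length and all settings for the stretches were added after seeing the data. Unknown depth limits every comparison of length.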

Other observations

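The ground beside the clusters differed in both directions. In the 200 kb posterior to the HoxB window (chr11:95780001-95980000) the bone marrow list covered 59.4 kb against 16.9 kb in the fetal liver list, the reverse of the order inside the cluster, whereas in the 200 kb anterior to it they covered 17.7 and 40.6 kb. Posterior to HoxC both were high, with 73.7 and 91.3 kb and 58.5 kb in common. Posterior to HoxA, on the side of Evx1, bone marrow had no peak for 725.5 kb beyond the edge of the marked region, and fetal liver peaks covered 4.96 kb of the first 200 kb beyond the window. Posterior to HoxD the order was the other way, with 3.77 kb in bone marrow against 0 in fetal liver.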
